A study of Homo sapiens with 24 samples.

Results

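The nuclear-encoded subunits of the mitochondrial respiratory chain and ATP synthase were followed in HMLE cells, which are human mammary epithelial cells made immortal in culture, carrying either a LacZ construct (a bacterial enzyme, the control) or an RBMS3 construct. RBMS3 is a protein that binds RNA. Members were the protein-coding genes whose symbols follow the naming of complex I (NDUFA, NDUFB, NDUFC, NDUFS, NDUFV), complex III (UQCR), complex IV (COX4 to COX8) and ATP synthase (ATP5F, ATP5M, ATP5P), together with SDHA, SDHB, SDHC, SDHD and CYC1, and they came to 86 of the 38849 genes in the deposited table. By complex there were 36 members in complex I, 4 in complex II, 10 in complex III, 18 in complex IV and 18 in ATP synthase, also called complex V. NDUFA4, named for complex I, is a complex IV subunit and was counted there. A further 104 pseudogene rows and 1 readthrough row were left out.

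Both lines received actinomycin D, an inhibitor of transcription, at 10 µg/mL, and RNA was taken at 0, 90, 180 and 360 min, which gives 8 groups of 3 libraries. The question of the design is whose RNA stability depends on RBMS3. Nothing in the labels tells if a group's 3 libraries are separate cultures or if either line was a single clone, so each p-value reflects library-to-library spread that could be technical only. QuantSeq libraries read 1 tag per mRNA near its 3′ end. The value used throughout is the authors' normalized count, which is relative to other genes and is not a share of the library total. Those totals were 6638187 to 7057240 at 0 min and 7638907 to 7741042 at 360 min in LacZ cells. For RBMS3 cells they were 6859933 to 6908351 and 7875078 to 8080428. Higher values late under actinomycin D mean more relative to other genes, not more molecules.

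As background, complex I passes electrons from NADH to ubiquinone, complex II from succinate to ubiquinone, complex III from ubiquinol to cytochrome c and complex IV from cytochrome c to oxygen, and ATP synthase uses the proton gradient that complexes I, III and IV build. The core of complexes I, III, IV and ATP synthase also needs subunits made from the mitochondrial genome, whereas every subunit of complex II is nuclear-encoded. Nuclear factors such as NRF1, the ETS-family factor GABPA and YY1 are known to act on many of these promoters.

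Promoters are shown because many members were higher in RBMS3 cells, but a link between promoter words and line differences was not tested. Of the 86 members, 69 matched a promoter entry of RefSeq (GRCh38.p14, 250 bases before to 50 after the start), with 82 entries. The words GCGCA-any base-GCGC (NRF1), AAGATGGCG (YY1) and CCGGAAG (ETS family), which do not contain one another, were searched on both strands. The first was in 20.7% of the member promoters and 5.78% of all 35116 promoters, the second in 12.2% and 1.75%, and the third in 26.8% and 10.3%. At least 1 of the 3 words was found for 40 of the 69 members, and for 8 of the 17 with an entry among the 18 members that were higher in RBMS3 cells at all 4 times. The NRF1 word was found for 17 of the 69 and 2 of the 17, the YY1 word for 9 and 3, and the ETS word for 21 and 6. The 250 bases before the start follow for 4 members, 5′ to 3′ on the gene's strand, with these words in capitals. NDUFS3 and UQCR11 were higher in RBMS3 cells at all 4 times, NDUFA3 at 3 and SDHA of complex II at 1. The 4 promoters shown all hold at least 1 of the words, which many members do not. They lie at chr11:47578824-47579073 (plus strand), chr19:1605463-1605712 (minus strand), chr19:54102605-54102854 (plus strand) and chr5:218070-218319 (plus strand). A match is a description of the sequence, not a bound site.
NDUFS3: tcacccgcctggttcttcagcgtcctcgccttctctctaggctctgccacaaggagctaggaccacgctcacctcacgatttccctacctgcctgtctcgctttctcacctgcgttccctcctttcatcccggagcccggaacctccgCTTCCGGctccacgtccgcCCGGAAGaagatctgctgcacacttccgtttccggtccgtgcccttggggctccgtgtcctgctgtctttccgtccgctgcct
UQCR11: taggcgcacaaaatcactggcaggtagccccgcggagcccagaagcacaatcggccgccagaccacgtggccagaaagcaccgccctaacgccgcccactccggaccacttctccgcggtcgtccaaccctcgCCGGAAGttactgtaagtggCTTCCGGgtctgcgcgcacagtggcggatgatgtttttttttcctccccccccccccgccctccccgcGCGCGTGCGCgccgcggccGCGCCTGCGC
NDUFA3: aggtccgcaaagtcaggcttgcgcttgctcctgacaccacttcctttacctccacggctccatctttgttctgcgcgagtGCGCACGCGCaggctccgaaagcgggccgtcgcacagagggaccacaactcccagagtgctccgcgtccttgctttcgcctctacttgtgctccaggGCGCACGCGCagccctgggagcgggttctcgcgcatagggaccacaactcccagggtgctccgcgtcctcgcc
SDHA: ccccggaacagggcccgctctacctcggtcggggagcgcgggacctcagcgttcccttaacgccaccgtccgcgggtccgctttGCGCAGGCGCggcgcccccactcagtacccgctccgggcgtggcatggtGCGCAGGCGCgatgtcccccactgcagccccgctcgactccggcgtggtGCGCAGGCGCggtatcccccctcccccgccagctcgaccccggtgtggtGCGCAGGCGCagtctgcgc
NDUFS3 has 2 ETS words in opposite orientations. UQCR11 has an ETS pair and 2 NRF1 words near its start, NDUFA3 has 2 NRF1 words, and SDHA has 4.

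The library totals of the table were 6638187 to 8080428, and the 12 transcript files that could be used held 4426445 to 9856338 estimated reads. RBMS3 itself was at 27.6 to 165 in the LacZ libraries and 174 to 358 in the RBMS3 libraries, with no overlap. The epithelial label held less in the RBMS3 line: EPCAM, an epithelial adhesion molecule, had a mean of 1716 in LacZ and 0.707 in RBMS3 cells at 0 min, the 11 epithelial markers summed to 16210 to 22527 in LacZ and 3682 to 13917 in RBMS3 libraries, and the 12 mesenchymal markers to 7512 to 10277 and 40182 to 58248. GRHL2 was at 0 in every RBMS3 library and COL3A1 in every LacZ library. The 9 leukocyte and endothelial markers summed to at most 83.3 in any library, and CD3E and CDH5 were at 0 throughout. The part of this difference in cell state in the values below was not tested.

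One library stood apart. In LacZ cells at 0 min, replicate 2 had 16 of the 79 tested members more than 2-fold under the mean of the other replicates (on the log2 scale), against 0 or 1 member in each of the other 23 libraries, and over all tested genes the share was 12.3%, against 4.11% to 6.85% elsewhere. SDHB, the iron-sulfur subunit of complex II, read 399, 91.1 and 349.8, and its estimated reads, as counts per 1e6 (CPM), were 65.4, 15.1 and 57.0. COX7B, a small complex IV subunit, read 718, 152 and 686, with 124, 89.6 and 128 estimated CPM. The dip of replicate 2 is thus in the reads of SDHB, and also of NDUFB3 (46.5, 7.78 and 40.7 CPM). It was larger in the table than in the reads for COX7B, ATP5MD (172, 107 and 169 CPM) and ATP5MC3 (426, 268 and 437 CPM). The factor between table and reads, relative to the median gene, varied over 1.5-fold among the 12 libraries with files for 17 of 79 members. This held for 39.6% of 9132 genes compared. The counts and members below that rest on LacZ cells at 0 min are therefore mostly given with and without this library.

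**Figure D1:**
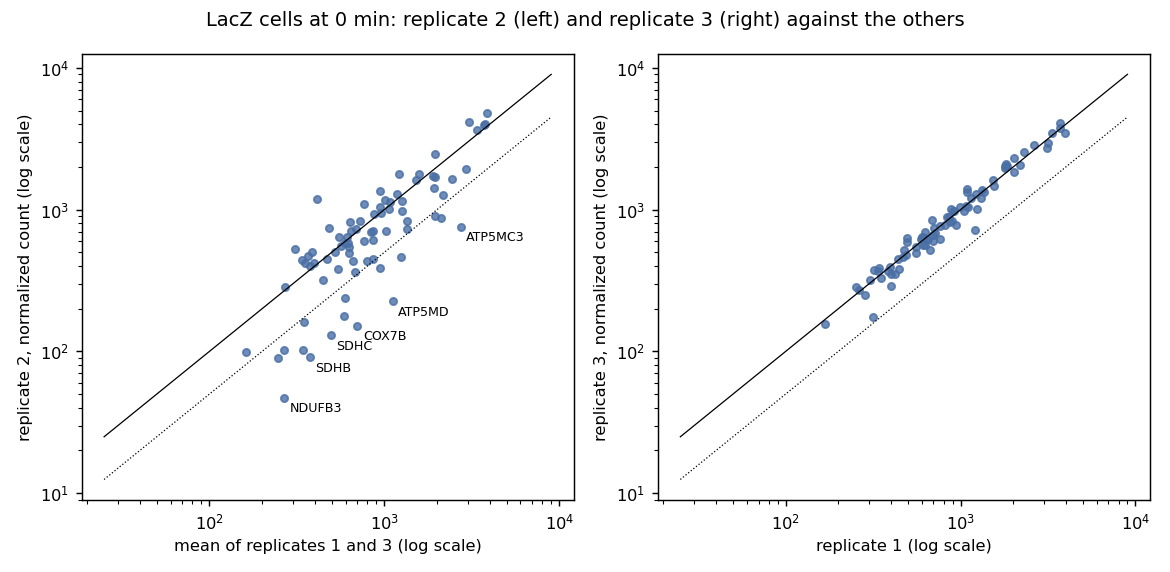
Normalized counts of the 79 tested members in LacZ cells at 0 min, on log axes: replicate 2 against the mean of replicates 1 and 3 (left) and replicate 3 against replicate 1 (right). The solid line marks equal values and the dotted line a 2-fold lower value; COX7B, ATP5MD, NDUFB3, SDHB, SDHC and ATP5MC3 lie under the dotted line in replicate 2.

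Of the 86 members, 79 passed the filter of a mean of at least 10. COX4I2, COX6A2, COX7A1 and COX7B2 were listed at 0 in all 24 libraries, and COX8C, COX6B2 and UQCRHL had means under 10. Across the 79, mean normalized counts ran from 209 for SDHD, a membrane anchor of complex II, to 5328 for ATP5F1E, the epsilon subunit of the ATP synthase rotor. With 1 tag per mRNA, no division by length was made here. The sources used here do not tell if transcript length entered the authors' normalization.

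All members together took 1.07 to 1.29% of the library total in LacZ cells at 0 min, where replicate 2 was lowest, and 1.5% as the median in RBMS3 cells, where the lowest was 1.47%. At 360 min the share was 1.48 to 1.61% and 1.77 to 1.80%. The lines did not overlap at either time. Complex I took 0.381 to 0.404% of LacZ and 0.438 to 0.466% of RBMS3 libraries at 0 min, and ATP synthase 0.303 to 0.378% and 0.483 to 0.500%. Complex III overlapped between the lines at 0 min, at 0.172 to 0.215% and 0.201 to 0.212%, and so did complex II at 360 min, at 0.0239 to 0.0341% and 0.0262 to 0.0302%. The subunits encoded by the mitochondrial genome went the other way, from 2.49 to 2.75% at 0 min to 0.985 to 1.03% at 360 min in LacZ and from 2.04 to 2.09% to 0.768 to 0.832% in RBMS3 cells. In such bulk libraries fewer cells of a type and less RNA per cell cannot be told apart.

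**Figure D2:**
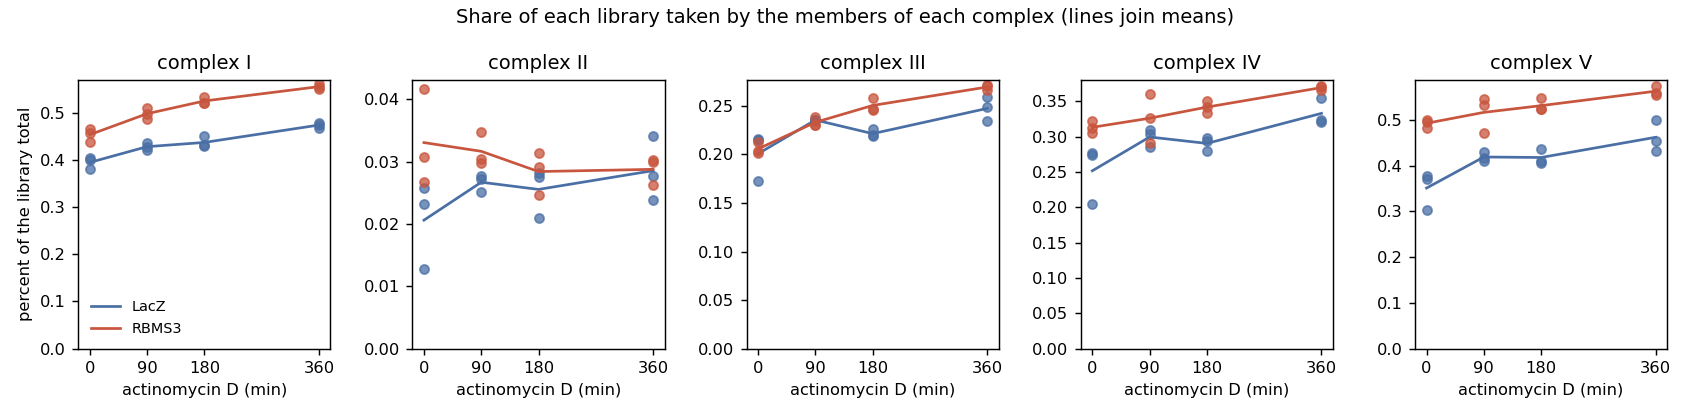
Percent of the library total taken by the members of each complex (y) against minutes of actinomycin D (x); points are libraries and lines join the means of 3. The RBMS3 points lie above the LacZ points at every time for complex I and ATP synthase, and overlap them at 0 and 90 min for complex III, at 180 and 360 min for complex II and at 90 min for complex IV.

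Before transcription was blocked, members were mostly higher in RBMS3 cells: of 79 tested, 40 were higher and 5 lower at 0 min, where 18.6% of all genes tested were higher and 18.9% lower. The median difference was 0.41 log2, against 0.01 over all genes. Without replicate 2 of LacZ cells at 0 min the counts were 30 higher and 4 lower and the median 0.22, against 16.7% and 18.2% of all genes and a median of -0.02, and 29 of the higher members were shared. The groups after actinomycin D do not use that library. There, 23 were higher and 2 lower at 90 min (14.9% and 15.0% of all genes, median of members 0.20), 35 and 1 at 180 min (16.2% and 16.8%, median 0.34), and 37 and 1 at 360 min (17.5% and 17.7%, median 0.27). Scaling to the 83 ribosomal protein genes instead moved the median of all genes by over 0.1 log2, to -0.34, -0.12, -0.18 and -0.21 at the 4 times, and the members' counts became 15 higher and 19 lower (10.3% and 33.6% of all genes), then 15 and 2 (12.1% and 18.5%), then 18 and 3 (11.6% and 22.8%) and last 21 and 6 (11.7% and 25.1%), with medians of 0.06, 0.10, 0.18 and 0.08. The members' median stayed above that of all genes at each time, while the direction of many calls at 0 min depended on the scaling. A fit of the 2 groups alone left 20 higher and 1 lower at 0 min, with 12.3% and 13.1% of all genes.

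By complex, the members higher at 0 min were 16 of 36 in complex I, 2 of 4 in complex II, 4 of 9 in complex III, 6 of 12 in complex IV and 12 of 18 in ATP synthase. They were 13, 1, 2, 6 and 8 without replicate 2 of LacZ cells. At 360 min they were 17, 0, 7, 2 and 11. Complex IV members other than COX5A and COX8A did not pass at 360 min, and their differences lay between -0.10 and 0.35. Over the 4 times, 18 members were higher at all of them, 4 at 3, 15 at 2 and 21 at 1. The same counts were not taken over all genes, and the comparisons share the same lines. These counts thus have no background to be read against. With all libraries in the fit, the 18 were ATP5F1A, ATP5F1E, ATP5MC1, ATP5MC2, ATP5MG, ATP5PF, COX5A, COX8A, NDUFA6, NDUFB10, NDUFB11, NDUFC2, NDUFS3, NDUFS8, NDUFV1, UQCR11, UQCRC1 and UQCRC2. Of these, UQCR11 did not pass at 0 min without replicate 2 of LacZ cells. Only UQCRB was lower at all 4. Another 17 passed at no time, among them ATP5F1B, COX4I1, COX7C, SDHB and UQCRH. CYC1 and NDUFA5 passed in both directions, lower at 0 min and higher later.

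**Figure D3:**
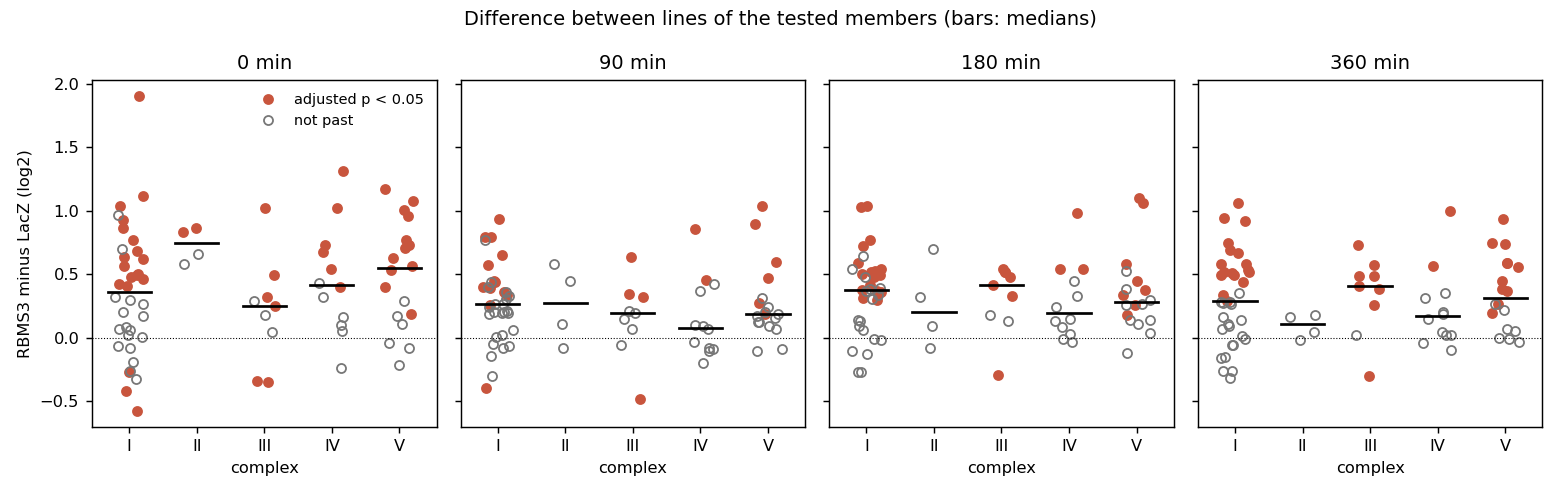
Difference between RBMS3 and LacZ cells (log2, y) for each of the 79 tested members by complex (x) at 4 times; filled points passed an adjusted p of 0.05 and bars are medians. Most points lie above 0 at each time, at 40, 23, 35 and 37 members past the threshold in the higher direction; at 0 min this split became 15 higher and 19 lower when scaled to ribosomal protein genes.

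Among complex I members, NDUFV1 carries the FMN that accepts electrons from NADH. It read 706, 828 and 739 in LacZ and 1079.8, 1240.3 and 1331 in RBMS3 cells at 0 min, and 853, 1006 and 915 against 1710.3, 1893 and 1725 at 360 min. The lines did not overlap at any time. The log2 difference was 0.68 ± 0.09 (SE; adjusted p = 4.2e-06) at 0 min and 0.94 ± 0.09 (SE; adjusted p = 5.4e-08) at 360 min. NDUFS3, a core subunit of the arm that reaches into the matrix, read 613, 541 and 641 against 1031, 1078 and 1157 at 0 min and 877, 803 and 758 against 1695, 1746 and 1543 at 180 min. Every RBMS3 library was above every LacZ library of all 4 times, and the differences were 0.86 ± 0.08 (SE; adjusted p = 5.7e-08) and 1.03 ± 0.08 (SE; adjusted p = 4.9e-09). NDUFS8, which holds a pair of iron-sulfur clusters in the matrix arm, read 489, 745 and 481 against 869, 809 and 1236 at 0 min, where replicate 2 of LacZ was the high one, and 705, 826 and 651 against 1142, 1201 and 1165 at 360 min. The groups did not overlap at either time, with differences of 0.77 ± 0.15 (SE; adjusted p = 4.1e-04) and 0.69 ± 0.15 (SE; adjusted p = 0.0012).

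The accessory subunits NDUFA6 and NDUFA3 were also among the largest differences. NDUFA6, a LYR-motif protein, read 422, 506 and 351 against 623, 576 and 568 at 0 min and 544, 574 and 623 against 969, 1056 and 903 at 360 min, and differed by 0.48 ± 0.12 and 0.75 ± 0.12 (SE; adjusted p = 0.0031 and 4.4e-05). The lines were apart at both times. NDUFA3 read 315, 89.4 and 176 in LacZ and 601, 694 and 636 in RBMS3 cells at 0 min. Its difference of 1.91 ± 0.38 (SE; adjusted p = 4.2e-04), or 1.44 ± 0.36 without replicate 2 of LacZ cells, was the largest of any member. At 90 min it read 159.5, 251 and 253 against 290.3, 615 and 284 and did not pass. The factor between table and estimated reads for NDUFA3 ranged from 0.401 to 1.64 over 12 libraries, relative to the median gene; its part in these values was not tested.

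In complex III the direction was split. UQCRB, a small subunit at the ubiquinone site, read 3714, 4031 and 3789.7 in LacZ and 3153, 3001 and 2935 in RBMS3 cells at 0 min and 5759, 6193 and 5732 against 4763, 4930.0 and 4662 at 360 min. LacZ was above RBMS3 without overlap at each time, and the difference was -0.34 ± 0.06 (SE; adjusted p = 4.9e-05) at 0 min and -0.48 ± 0.06 (SE; adjusted p = 9.4e-07) at 90 min. The core protein UQCRC2, in contrast, was higher at all 4 times, at 495, 380.0 and 592 against 897, 991 and 1054 at 0 min (difference 1.02 ± 0.12, or 0.85 ± 0.10 without replicate 2 of LacZ cells). UQCRC1, its partner core protein, differed by 0.34 to 0.73 and UQCR11 by 0.32 to 0.54 over the times. UQCR11 did not pass at 0 min once replicate 2 was left out.

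COX5A, a complex IV subunit that faces the matrix, read 759, 733 and 620.1 in LacZ and 1456, 1423 and 1408 in RBMS3 cells at 0 min, and 969.9, 1054 and 1113 against 2078, 1954 and 2229 at 360 min. Every RBMS3 library was above every LacZ library of any time. The difference was 1.03 ± 0.09 (SE; adjusted p = 1.9e-08) at 0 min and 1.00 ± 0.09 (SE; adjusted p = 3.5e-08) at 360 min. Its partner subunit COX5B differed by 0.40 at 0 min (0.37 without replicate 2 of LacZ cells) and passed at no later time, when the values were 0.10, 0.09 and 0.19.

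In ATP synthase, ATP5F1A, the alpha subunit of the catalytic head, read 1151, 1288 and 1206 in LacZ and 2743, 2621 and 2830.2 in RBMS3 cells at 0 min and 1520.2, 1621 and 2120.1 against 3144, 2677 and 2912 at 360 min. The lines did not overlap, and the difference was 1.17 ± 0.17 (SE; adjusted p = 1.2e-05) at 0 min and 0.74 ± 0.17 (SE; adjusted p = 0.0016) at 360 min. ATP5F1B, the beta subunit that holds the catalytic sites, differed by 0.29, 0.24, 0.26 and 0.26 at the 4 times and passed at none. Without replicate 2 of LacZ cells the 0 min differences were 0.75 ± 0.09 for NDUFV1, 0.79 ± 0.08 for NDUFS3, 0.97 ± 0.13 for NDUFS8, 0.61 ± 0.11 for NDUFA6, -0.31 ± 0.05 for UQCRB, 1.06 ± 0.10 for COX5A and 1.21 ± 0.19 for ATP5F1A, and each passed. ATP5F1B was then at 0.04 ± 0.08. The factor between table and reads for ATP5F1A was 0.823 to 1.66 over the libraries with files.

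**Figure D4:**
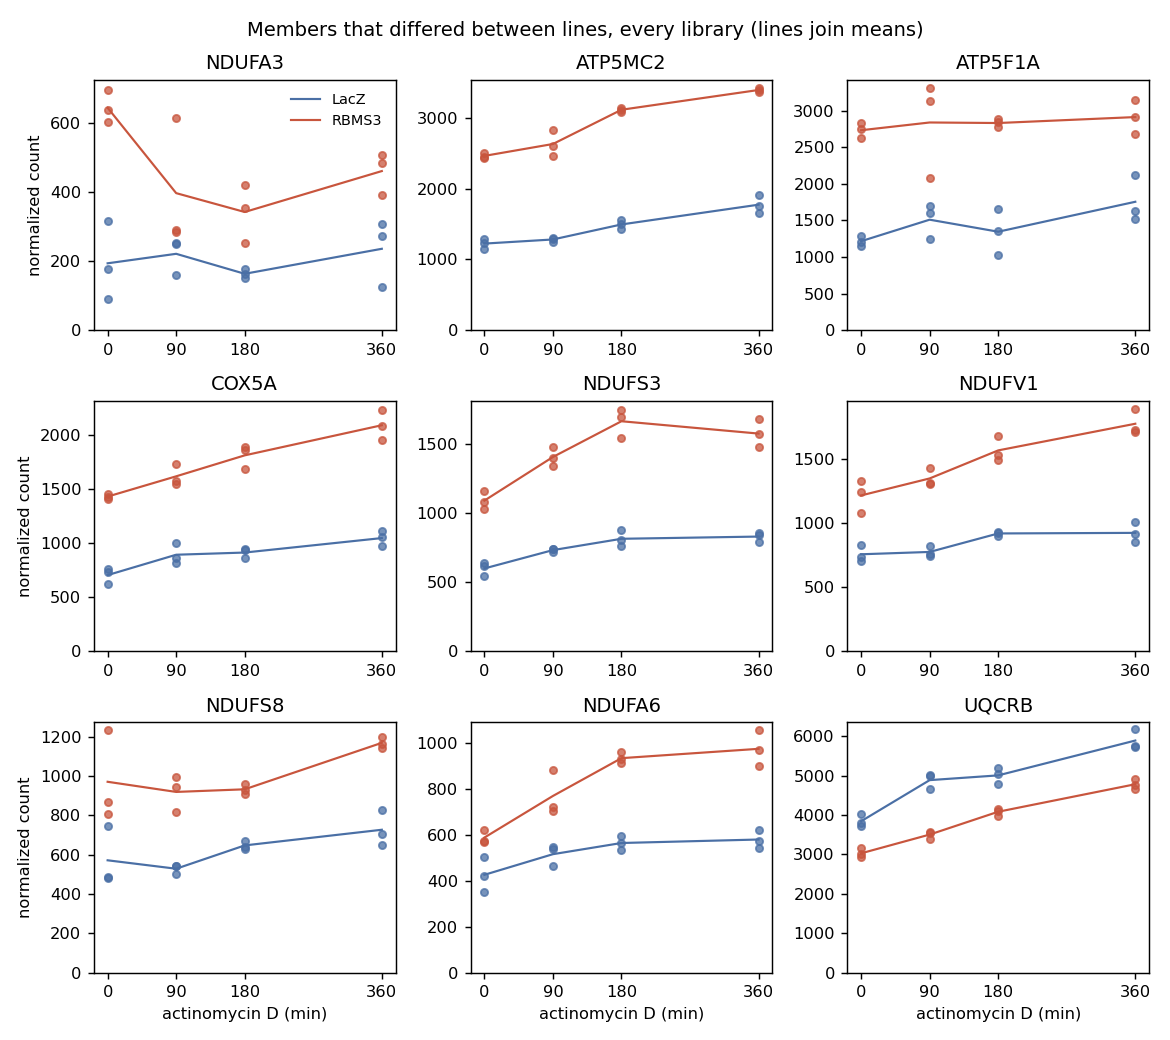
Normalized counts (y, from 0) in every library against minutes of actinomycin D (x) for the 8 members with the largest higher and the 1 with a lower line difference at 3 or 4 times; lines join the means of 3. None of the 9 overlaps between lines at any time, and UQCRB is the one that is lower in RBMS3 cells.

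The 3 genes that encode the same c subunit of the ATP synthase rotor differed from one another. ATP5MC2 read 1233, 1152 and 1283 in LacZ and 2431, 2446 and 2508 in RBMS3 cells at 0 min and 1652, 1761 and 1904 against 3386, 3371 and 3421 at 360 min, differences of 1.01 ± 0.07 and 0.94 ± 0.07 (SE; adjusted p = 1.4e-10 and 4.9e-10). ATP5MC1 read 1527, 1781 and 1630.3 against 2257, 2353 and 2527 at 0 min, a smaller step of 0.53 ± 0.06 that was 0.74 ± 0.06 at 360 min (adjusted p = 1.3e-06 and 1.5e-08). Both genes were apart between lines at every time, and without replicate 2 of LacZ cells the 0 min differences were 0.97 ± 0.06 and 0.59 ± 0.06. ATP5MC3, with the highest mean of them over all libraries, read 2618, 760.4 and 2868 against 3647, 3441 and 3327 at 0 min and 3843, 3922 and 4433 against 4243, 4200.3 and 4359 at 360 min. It passed at 0 min only with replicate 2 in the fit (0.96 ± 0.31, and 0.34 ± 0.15 without it, adjusted p = 0.018 and 0.091), and at 360 min the difference was 0.07 ± 0.31.

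Complex IV showed the ubiquitous forms of its paired subunits. COX4I1 had means of 3411 ± 628 and 3621 ± 179 (SD, n = 3) at 0 min in LacZ and RBMS3 cells, COX6A1 of 1144 ± 357 and 1765 ± 74.8, and COX7A2 of 1597 ± 604 and 2038 ± 210.0. Their counterparts COX4I2, known from lung and low oxygen, and COX6A2 and COX7A1, known from heart and skeletal muscle, were listed at 0 in all libraries. COX7A2L, a supercomplex assembly factor of the same family, had 477 ± 208 and 456 ± 11.9, with line differences of 0.03 to 0.07 over the 4 times. COX6B1 read 1403 ± 351 and 1181 ± 248, while COX6B2, a testis form, was above 0 in 10 of 24 libraries with a mean of 2.44. COX8A, whose paralog COX8C was nearly absent from the table, read 2315, 1646 and 2531 against 2998, 3142 and 3180.3 at 0 min and 3102, 3049.5 and 3249 against 4820.0, 4480.5 and 4628 at 360 min, 0.54 ± 0.11 and 0.57 ± 0.11 higher in RBMS3 cells (adjusted p = 3.4e-04 and 2.5e-04). Without replicate 2 of LacZ cells the 0 min difference was 0.36 ± 0.07 for COX8A, and 0.39 ± 0.08 in place of 0.68 ± 0.15 for COX6A1, and COX4I1 passed at 0.25 ± 0.06. NDUFA4 read 1095, 464 and 1401 in LacZ and 1532, 1556 and 1366 in RBMS3 cells at 0 min, where it differed by 0.73 ± 0.25 (SE; adjusted p = 0.026), and by 0.26 ± 0.15 without replicate 2 (adjusted p = 0.21). The lines overlapped at 0 min, and NDUFA4 did not pass at later times. COX7B, at 1177, 1137 and 861 in RBMS3 cells at 0 min, differed from LacZ by 1.31 ± 0.36 with replicate 2 and 0.58 ± 0.18 without it, and by 0.04 ± 0.36 at 360 min. UQCRH, the acidic hinge protein of complex III, read 1856 ± 164 and 1912 ± 83.7 at 0 min and passed at no time; the near-identical UQCRHL had a mean of 2.48, and reads could have been split between them. ATP5MGL is likewise a near copy of ATP5MG, so both values are uncertain: ATP5MG read 3474 ± 154 and 3962 ± 109.9, and ATP5MGL 275 ± 20.0 and 310.5 ± 30.0.

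Complex II has no mitochondrially encoded part. Its share of the library at 90 min was 0.0252 to 0.0277% in LacZ and 0.0298 to 0.0348% in RBMS3 cells, with no overlap, while the lines overlapped at 180 and 360 min. SDHA, the flavoprotein that oxidizes succinate, read 671, 582 and 519.7 in LacZ and 964, 1672 and 708 in RBMS3 cells at 0 min, with 1 RBMS3 library far above the others. Its difference was 0.83 ± 0.24 (SE; adjusted p = 0.0087) at 0 min and 0.05 ± 0.24 at 360 min; pseudogene rows of SDHA add 1.43% to its level. SDHB read 400.3, 372 and 341 in RBMS3 cells and differed by 0.66 ± 0.36, or -0.01 ± 0.23 without replicate 2 of LacZ cells. SDHC and SDHD, the membrane anchors, differed by 0.87 ± 0.32 and 0.58 ± 0.28 at 0 min, and by 0.23 ± 0.16 and 0.34 ± 0.29 without it. Of the 4, SDHA alone passed at 0 min without replicate 2, and none passed at 90, 180 or 360 min. At these times SDHA differed by 0.58, 0.32 and 0.05 and SDHD by 0.44, 0.70 and 0.18.

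After transcription was blocked the members rose in normalized count, relative to other genes, in both lines. In LacZ cells 62 of 79 were higher at 360 than at 0 min and 0 lower, against 14.9% and 13.6% of all genes, with a median of 0.56 against 0.03. In RBMS3 cells 56 were higher and 0 lower, against 19.1% and 18.6%, with a median of 0.53 against -0.01. No member was lower by limma in either line, and 0 were lower at 360 min at an unadjusted p under 0.05. The gain was already seen at 90 min, with 18 higher in LacZ (3.44% of all genes, 0 lower against 2.74%) and 11 in RBMS3 cells (7.99%, 0 lower against 6.52%), and at 180 min, with 37 (7.75%, 0 lower against 6.87%) and 36 (13.5%, 0 lower against 12.4%). At an unadjusted p under 0.05, 0 were lower in LacZ cells at 90 and 180 min and 2 in RBMS3 cells at each of these times. Without replicate 2 of LacZ cells at 0 min, 56 were higher at 360 min, 37 at 180 min and 17 at 90 min, and the median at 360 min was 0.49, with 13.3%, 7.91% and 2.81% of all genes higher. By complex I to V, those higher at 360 min were 26, 3, 7, 10 and 16 in LacZ and 27, 0, 9, 8 and 12 in RBMS3 cells, and without that library complex II had 0 in LacZ cells. A total of 45 members were higher at 360 min in both lines, 17 in LacZ alone and 11 in RBMS3 alone by the threshold, which does not test the difference between lines. This split was not counted over all genes, so it has no background. It uses all libraries, and without replicate 2 of LacZ cells at 0 min 10 of the LacZ calls were lost and 4 gained. With ribosomal protein genes as the scale, all genes had a median of -0.52 in LacZ and -0.41 in RBMS3 cells. The members then split into 9 higher and 10 lower in LacZ cells, where 1.05% of all genes were higher and 40.2% lower, and 15 higher and 3 lower in RBMS3 cells, where it was 5.91% and 32.6%. Scaled to the table total, so that values are shares, 41 were higher and 0 lower in LacZ cells (6.98% and 18.4% of all genes). RBMS3 cells then had 37 higher and 1 lower (10.8% and 24.7%). The members' medians on this scale were 0.37 in LacZ and 0.31 in RBMS3 cells, against -0.15 and -0.22 over all genes. A fit of the 2 LacZ groups alone left 24 higher (3.95% of all genes), and a fit of the 2 RBMS3 groups alone 64 higher and 1 lower (20.3% and 19.3%).

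The largest gains in LacZ cells were of COX7B, ATP5MD, NDUFB3 and NDUFC1, and all 4 rest in part on replicate 2 at 0 min. COX7B went from 718, 152 and 686 to 1175, 1392 and 1589, 1.70 ± 0.36 with and 0.97 ± 0.18 without it. ATP5MD, a small subunit that joins ATP synthase into dimers, went from 1235, 226 and 1004 to 1694, 1795 and 2388 (1.56 ± 0.39 and 0.80 ± 0.21), and NDUFC1 of complex I from 321, 160.5 and 372 to 593, 649 and 679 (1.25 ± 0.19 and 0.88 ± 0.11). These 3 passed either way. NDUFB3, from 285, 47.2 and 249 to 349, 368 and 605, passed only with that library (1.503 ± 0.55, and 0.68 ± 0.47 without). In all, 10 members passed only with it, namely COX7A2L, NDUFA4, NDUFA8, NDUFB3, NDUFB5, NDUFB6, SDHB, SDHC, SDHD and UQCRQ, and 4 only without it, namely NDUFB9, NDUFS7, NDUFS8 and UQCRC1.

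In RBMS3 cells the largest gains were of NDUFA5, NDUFV2, CYC1 and NDUFS7, and no such library was involved. NDUFA5, an accessory subunit of complex I, went from 298, 374 and 369 at 0 min to 733, 664 and 758 at 90 min and 688, 741 and 773 at 360 min, a gain of 1.08 ± 0.13 (SE; adjusted p = 8.6e-07) over 360 min, and its 90 and 360 min values overlapped. NDUFS7, which carries the iron-sulfur cluster next to ubiquinone, went from 367, 381 and 316 to 799.7, 666 and 606, or 0.95 ± 0.17 (SE; adjusted p = 1.5e-04). Neither overlapped its 0 min group. In LacZ cells NDUFS7 went from 302, 526 and 318 to 568, 486 and 468 and did not pass (0.45 ± 0.17), but passed without replicate 2 at 0 min (0.70 ± 0.14).

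From 90 to 360 min within RBMS3 cells, a comparison that uses no 0 min library, 35 of 79 members were higher and 0 lower, against 7.62% and 8.35% of all genes, with a median of 0.37 against 0.03. NDUFA11 had 0.62 ± 0.08 (SE; adjusted p = 9.9e-06), ATP5MPL 0.65 ± 0.09 and UQCRB 0.45 ± 0.06 (SE). This was the comparison in which the authors' estimated counts could be tested: 58 of 78 members were higher by edgeR and 60 of 81 by DESeq2, against 12.4% and 7.67% of all genes, with 0 lower in either against 13.6% and 8.33%, and by limma 0 were lower at an unadjusted p under 0.05. The edgeR share is over the 11547 genes its filter kept, and the DESeq2 share is over a wider set without that filter. Without its filter edgeR had 62 of 81 members higher, against 8.61% of all genes. By limma scaled to ribosomal protein genes, 0 were higher and 5 lower, against 0.321% and 23.6% of all genes. Scaled to the table total, 13 were higher and 0 lower, against 2.29% and 12.7% of all genes, with a median of 0.18 against -0.15. ATP5MC2 was the exception in sign, at 0.37 in the table and -0.70 by edgeR, but its matched transcripts held 0.907 to 8.30 estimated CPM in the RBMS3 libraries with files, where the table read 2458 to 3421, so the count tests hardly saw this gene.

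The pace of gain differed between lines for 4 of 79 members, all steeper in RBMS3 cells, against 2.93% of all genes steeper and 2.24% (0 members) less steep. CYC1, the heme-bearing cytochrome c1 of complex III, went from 1285, 1484 and 1311 to 2697, 2604 and 2684 in RBMS3 and from 1789, 1410.0 and 2043 to 2256, 2112 and 2320.1 in LacZ cells: it was the lower line at 0 min (-0.35) and the higher at 360 min (0.26). Its slope difference was 0.09 ± 0.02 (SE; adjusted p = 0.017) in log2 per hour. NDUFV2, the partner of NDUFV1 at the NADH site, went from 479, 567 and 588 to 1107, 1107 and 995 in RBMS3 and from 592, 644 and 625 to 768, 802 and 683 in LacZ cells, a slope difference of 0.10 ± 0.03 (SE; adjusted p = 0.027). RBMS3 was under LacZ without overlap at 0 min and above it without overlap at 360 min.

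ATP5MPL, a small ATP synthase subunit, went from 1105, 1169 and 1166 to 2276, 2236 and 1909 in RBMS3 and from 1046, 1174 and 982 to 1325, 1524 and 1402 in LacZ cells with a slope difference of 0.08 ± 0.02 (SE; adjusted p = 0.029). NDUFA11, a membrane-arm subunit of complex I, went from 1224, 1138 and 1097 to 1826, 1901 and 1853 and from 1105, 1139 and 1044 to 1409.7, 1336 and 1228 with a slope difference of 0.07 ± 0.02 (SE; adjusted p = 0.029). In both, the lines overlapped at 0 min and were apart at 360 min. Without replicate 2 of LacZ cells at 0 min the slope differences were 0.11 ± 0.02 for CYC1, 0.10 ± 0.03 for NDUFV2, 0.07 ± 0.02 for ATP5MPL and 0.06 ± 0.02 for NDUFA11, and all 4 passed. All 4 missed the threshold with limma's trend off, and leaving out 1 library at a time left 1 to 6 members. It was 6 without replicate 2 of LacZ cells at 0 min, 2 without replicate 2 and 1 without replicate 3 of LacZ cells at 360 min, 2 without replicate 1 of RBMS3 cells at 0 min, and 1 without replicate 1 or 2 of RBMS3 cells at 360 min. In the full set, the median slope difference of the 79 was -0.0077, against -0.0041 over all genes. At an unadjusted p under 0.05, 6 members were less steep in RBMS3 cells.

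**Figure D5:**
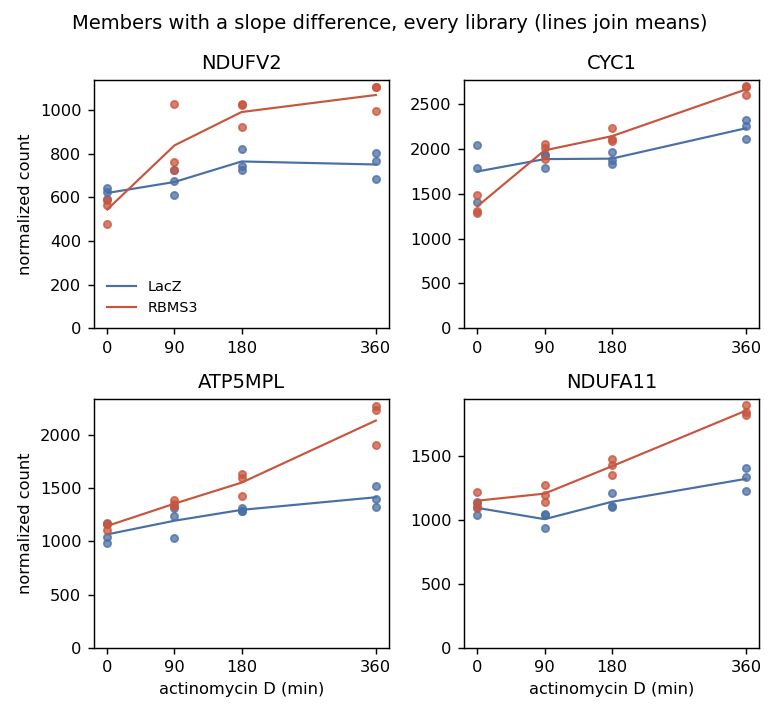
Normalized counts (y, from 0) in every library against minutes of actinomycin D (x) for the 4 members with a slope difference; lines join the means of 3. The lines overlap at 0 min for CYC1, ATP5MPL and NDUFA11, NDUFV2 starts lower in RBMS3 cells, and all 4 end with RBMS3 above LacZ at 360 min.

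Genes around the chain gave mixed counts at 0 min, and no test compared them with the subunits. The shares to read them against are 18.6% of all genes higher and 18.9% lower, or 16.7% and 18.2% without replicate 2 of LacZ cells. Of 18 complex I assembly factors, 6 were higher and 5 lower in RBMS3 cells (median -0.23). NDUFAF1, needed for an early membrane intermediate, had means of 84.7 ± 21.1 in LacZ and 182 ± 28.7 in RBMS3 cells (SD, n = 3), and NDUFAF6 of 138 ± 34.7 and 49.5 ± 5.13. Of 23 complex IV assembly factors 3 were higher and 2 lower (median -0.16), among them SCO1, a copper chaperone, lower at -1.05 ± 0.17. Of 6 complex III factors 3 were higher and 2 lower (median 0.34), of 4 complex II factors 0 in either direction (median 0.02), and of 6 ATP synthase assembly and inhibitor genes 0 were higher and 2 lower (median 0.06), with ATP5IF1, the inhibitor of ATP hydrolysis, lower at -0.58 ± 0.09.

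CYCS, cytochrome c itself, was lower in RBMS3 cells at 0 min (-0.74 ± 0.15), the 1 that passed of 3 subunits and carriers outside the symbol rule (median -0.07). Of 13 coenzyme Q synthesis genes 1 was higher (COQ2, 0.97 ± 0.21; median -0.05). Of 17 tricarboxylic acid cycle and pyruvate dehydrogenase genes 7 were higher and 1 lower (median 0.18), led by IDH2, mitochondrial isocitrate dehydrogenase, at 57.4 ± 1.62 and 297 ± 23.5. Of 15 tested biogenesis regulators (median 0.14) 1 was higher (PPARGC1B, 1.55 ± 0.56) and 1 lower (YY1, -0.52 ± 0.16), and PPARGC1A was listed at 0 in every library. Of the 13 mitochondrially encoded subunits 1 was higher and 6 lower (median -0.20), with MT-ND2, a membrane subunit of complex I, at -0.89 ± 0.07. With that library left out, 4 complex I factors were higher and 5 lower, and 3 complex III factors higher and 0 lower. In the cycle and pyruvate dehydrogenase list 5 were then higher and 0 lower, and of the regulators 0 higher and 1 lower (ESRRA, a nuclear receptor, named after its value was seen), with PPARGC1B (adjusted p = 0.074) and YY1 (adjusted p = 0.081) not past the threshold. Counts of the other lists were the same, but the medians became -0.14 for the complex II factors, -0.14 for the ATP synthase genes, 0.01 for the carriers and -0.02 for the regulators. In LacZ cells 11 of these 13 mitochondrially encoded subunits, and in RBMS3 cells 12, were lower at 360 than at 0 min.

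The members' transcripts were short at the 3′ end. For the most-read GENCODE 29 transcript of each gene, the 3′ UTR had a median of 190.5 bases in 78 members, against 1170 in 10773 tested genes. The transcript chosen is less certain where few reads were matched to the gene. The median factor between table and matched reads, relative to the median gene, was 154 for ATP5MC2, 47.2 for NDUFA10, and 2.75 for NDUFA5 and NDUFB9. The word ATATA, an AU-rich word searched on the transcript strand alone, was in 26 of the 78 (33.3%), against 60.3% of all. It was in 29.9% of the 3225 genes with a 3′ UTR of 115 to 682 bases, the members' middle range. These 3225 were not matched in length within that range. Their median 3′ UTR was 358 bases and their median transcript 1695, against 190.5 and 861 for members. ATTTA was in 44.9% of members, 71.8% of all and 44.7% of those 3225. Those 3225 genes had a median line difference of 0.05 at 0 min and a median change of 0.14 from 0 to 360 min in LacZ and 0.16 in RBMS3 cells, against 0.41, 0.56 and 0.53 for the 79 members. Members with ATATA had a median line difference of 0.54 at 0 min and 0.23 at 360 min, and those without it 0.32 and 0.29. The 0 min medians were 0.28 and 0.20 without replicate 2 of LacZ cells. All 4 members with a steeper slope in RBMS3 cells were among the 52 of 78 members without ATATA. A link between slope and word was not tested, and 0 slopes passed with limma's trend off.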

How the data were processed

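RNA of 24 libraries (8 groups of 3) was measured by QuantSeq. The deposited table holds the authors' normalized counts per gene, a signal that is not whole reads. The authors also deposited estimated counts per transcript. The tools, named with no role, were DESeq2 1.32.0, Salmon 1.4.0 and Trim Galore 0.6.6, per the submitters' processing notes. The sources used here name no genome build or annotation. The 12 transcript files whose names match their sample were used, with estimated counts rounded and summed to genes by GENCODE 29 names, and 12 whose names disagreed with the sample's title were not used.

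Differences are from limma 3.58.1 (R 4.3.3, trend on) on the log2 of the normalized count plus a pseudocount of 1. A single fit held the means of all 8 groups, over the 12096 genes with a mean of at least 10. This scale understates changes of low genes. P-values were Benjamini-Hochberg adjusted over all genes, with a threshold of 0.05, and "higher" and "lower" mean past it. The slope is a linear contrast over hours. Estimated counts were tested with edgeR 4.0.16 and DESeq2 1.42.0 for the 9 RBMS3 libraries with files. Scripts were tested on simulated data. Alternatives were the pseudocount, the filter, the scaling, the limma trend, the groups in the fit, the replicate block and leaving out each library.

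Members and lists were chosen with earlier results of these data known. By rule, values are given for members with the largest line difference past the threshold at 3 or 4 times, the largest slope differences, the largest changes over 360 min in each line, paralogs, complex II and CYC1, and up to 3 genes per list with the largest difference at 0 min.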

Additional observations from a re-analysis of the deposited data

Results flagged for a closer look

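The change over time differed between the lines for 4 of 79 members, against 2.93% of all genes steeper in RBMS3 cells, by a test of the difference itself (a contrast of slopes in limma with Benjamini-Hochberg adjustment over all genes tested). The slope in RBMS3 minus that in LacZ cells was 0.1028 log2 per hour for NDUFV2, 0.0896 for CYC1, 0.0814 for ATP5MPL and 0.0657 for NDUFA11. With limma's trend off 0 members passed, and leaving out 1 library at a time left 1 to 6.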

How the results depend on the processing

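Scaled to the ribosomal protein genes, members higher and lower in RBMS3 cells were 15 and 19 at 0 min and 15 and 2 at 90 min. Later they were 18 and 3 (180 min), then 21 and 6 (360 min). With the same scaling, 9 were higher and 10 lower at 360 against 0 min in LacZ cells, 15 and 3 in RBMS3 cells, and 0 and 5 at 360 against 90 min in RBMS3 cells. It also reversed single values: in LacZ cells at 360 against 0 min, ATP5F1A was at -0.0462, ATP5MC1 -0.28, ATP5MC2 -0.0272, ATP5MPL -0.15, COX4I1 -0.0623, COX8A -0.0045, CYC1 -0.19, NDUFA11 -0.29, NDUFA5 -0.0045, NDUFA6 -0.10, NDUFS3 -0.0893, NDUFV1 -0.27 and UQCRH -0.068. In RBMS3 cells at 360 against 90 min, ATP5MC1 was at -0.0223, ATP5MC2 -0.0393, COX5A -0.0402, NDUFV1 -0.013, NDUFV2 -0.0421 and UQCRH -0.0773. Scaled to the table total, 41 were higher over 360 min in LacZ cells, and 37 were higher and 1 lower at 360 against 0 min and 13 higher at 360 against 90 min in RBMS3 cells. Fitting only the groups compared gave 20 higher and 1 lower between lines at 0 min (12.3% and 13.1% of all genes), and 27, 37 and 41 higher at the later times (15.2%, 15.1% and 17.8%). It gave 24 higher over 360 min in LacZ cells (3.95% of all genes), 64 higher and 1 lower in RBMS3 cells (20.3% and 19.3%), and 42 higher at 360 against 90 min (7.97%).

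On estimated counts, RBMS3 cells at 360 against 90 min had 58 members higher by edgeR, 62 without its filter and 60 by DESeq2, and ATP5MC2, which had almost no reads under a matched name, was at -0.70, -0.70 and -0.72. With limma's trend off, 0 members had a steeper slope. The cause of these shifts was not tested.

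Leaving out 1 library at a time gave 30 to 44 higher and 3 to 5 lower at 0 min between lines, and 16 to 19 and 2 at 90 min. At 180 min it gave 26 to 34 and 1 to 2, at 360 min 27 to 32 and 1. It gave 51 to 59 higher and 0 lower over 360 min in LacZ cells, 50 to 55 and 0 to 1 in RBMS3 cells, 28 to 32 and 0 at 360 against 90 min, and 1 to 6 and 0 for the slope. Same-numbered libraries correlated at -0.02 to 0.07 in their deviations over all tested genes. No pairing by number was seen, but a weak one could be missed by this measure. With a replicate block, 40 members were higher and 4 lower at 0 min and 21 and 2 at 90 min. At 180 min it gave 37 and 1, at 360 min 36 and 1. With the same replicate block, 62, 56 and 35 were higher in the 3 comparisons over time and 4 had a steeper slope, and of the named members NDUFA5 at 90 min and NDUFS7 at 360 min changed their call. Of 125 calls of named members, 51 passed in every setting.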
